A study of Gossypium hirsutum with 120 samples.

Results

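Cuticular wax and cutin are made by a set of epidermal enzymes, and 31 Arabidopsis genes of that set were followed here through the nectaries of upland cotton (Gossypium hirsutum, genetic standard line TM-1). The genes were chosen by function: fatty acid elongation, the wax pathways that follow it, long-chain acyl-CoA synthetases, cutin hydroxylases and acyltransferases, ABCG exporters and the regulator SHN1. Every protein entry whose listed Arabidopsis match was one of them was taken, which gave 92 of 49663 entries, belonging to 91 cotton genes and to 26 of the 31 Arabidopsis genes. KCS20 (AT5G43760), WSD1 (AT5G37300), MAH1 (AT1G57750), CYP86A4 (AT1G01600) and CYP77A6 (AT3G10570) were the match of no entry, all 92 entries passed the filter on low values, and 66 of them were at 0 in at least 1 sample. Values of the cotton genes that share an Arabidopsis match were summed, so each name below stands for the cotton entries matched to that Arabidopsis gene.

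The study sequenced RNA of excised nectaries and of the tissue next to them, and 51 RNA samples, each sequenced in 2 runs, were analysed. Floral nectaries (a ring of papillae on the inner base of the calyx) were taken before secretion, on the day before anthesis (2 nectary and 3 adjacent samples), during secretion at anthesis (3 and 3), and after secretion on the next day (3 and 3). Of the 3 extrafloral types, bracteal nectaries (at the base of the bracts; 2 and 2 samples) and circumbracteal nectaries (on the outer calyx; 3 and 3) were taken before secretion at the match-head square stage. The same types were taken again, as the post-secretory stage, 19 to 24 days after anthesis (3 and 3 of each). Their secretory samples belong to a second set that was not analysed here. Foliar nectaries (on the lower side of the leaf midrib) were taken from young leaves with a midvein of 5 to 6 cm before secretion (2 and 2), from mature leaves bearing nectar with a midvein of 12 to 15 cm (1 and 1) and from mature leaves without nectar, called post-secretory (3 and 3). All samples came from the same untreated line, and each pooled several excised nectaries, so no sample is 1 gland. Nothing says that the samples of a group came from separate plants, so p-values measure only the spread between these samples.

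The outer wall of the plant epidermis is covered by a cuticle, in which a polyester, cutin, is filled and coated with waxes. Waxes derive from fatty acids that an elongase complex lengthens and that are then turned into alkanes or alcohols, whereas cutin is built from hydroxylated fatty acids joined to glycerol, and ABCG transporters carry both out of the cell. In nectaries formed by glandular papillae, as in cotton, nectar has to pass the wall and the cuticle of the papillae to reach the surface.

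Summed deposited values per RNA sample ran between 7489375 and 16203450, and the correlation between the 2 runs of a sample between 0.93 and 0.991. The 4 nectary markers in the table (CRC, SWEET9, CWINV4 and BOP2) summed to more in every nectary sample than in any adjacent sample of its own group, from 27903–82193 against 102–390 in pre-secretory floral samples to 131–234 against 39.9–101 in post-secretory foliar samples. Most of the sum was CWINV4 in floral, bracteal and circumbracteal nectaries. Before secretion some adjacent samples came close to nectaries. CWINV4 had 3020 and 2325 in bracteal nectaries against 39.0 and 2182 in adjacent tissue. In the circumbracteal groups it had 774, 3236 and 1036 against 257, 84.3 and 740. Whether nectary tissue was present in those adjacent samples was not tested. BOP2 lay above adjacent tissue in floral nectaries but below it in post-secretory bracteal ones (40.7, 67.0 and 68.1 against 145, 246 and 237). The same held in post-secretory circumbracteal nectaries (39.9, 40.3 and 58.6 against 107, 127 and 264), and CRC overlapped with adjacent tissue at each floral stage. Entries matched to SWEET9, the nectar sucrose exporter known from other species, were at 0 in every extrafloral sample analysed, nectary and adjacent alike. These samples lack the secretory stage of bracteal and circumbracteal nectaries. The paper reports SWEET9 expression in cotton extrafloral nectaries, so the zeros do not show that the gene is silent there. The 3 circumbracteal pre-secretory nectaries spread most among themselves, at 1.57 times the pooled SD, and the third of them had the fewest entries above 0 (30965).

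In floral nectaries, most of the cuticle genes were lower than in the adjacent tissue, at all 3 stages. Before secretion 16 of the 26 genes were lower and 1, LACS4, was higher, during secretion 14 were lower, and after secretion 14 were lower. Normalized values are the deposited length-scaled values divided by a scaling factor per sample, and fold changes are differences of log2(value + 1), which understate the change of low genes. A call means an adjusted p under 0.05 in limma (Benjamini-Hochberg over all genes tested) and a change of at least 1.5-fold. Over all 14133 genes tested, 15.3%, 13.8% and 5.94% were called at those stages in either direction, and 7.73%, 7.85% and 2.84% were called lower, so a larger share of the cuticle genes than of all genes was lower at each stage. The median log2 fold change of the 26 was -2.71, -1.90 and -1.72 at the 3 stages, beside 0.02, -0.02 and 0.01 over all genes. KCS2, CER6, KCS9, FDH, CER1, LACS2, CYP86A8, GPAT4, GPAT6, DCR, ABCG11 and ABCG32, 12 genes in all, were lower at every stage.

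**Figure D1:**
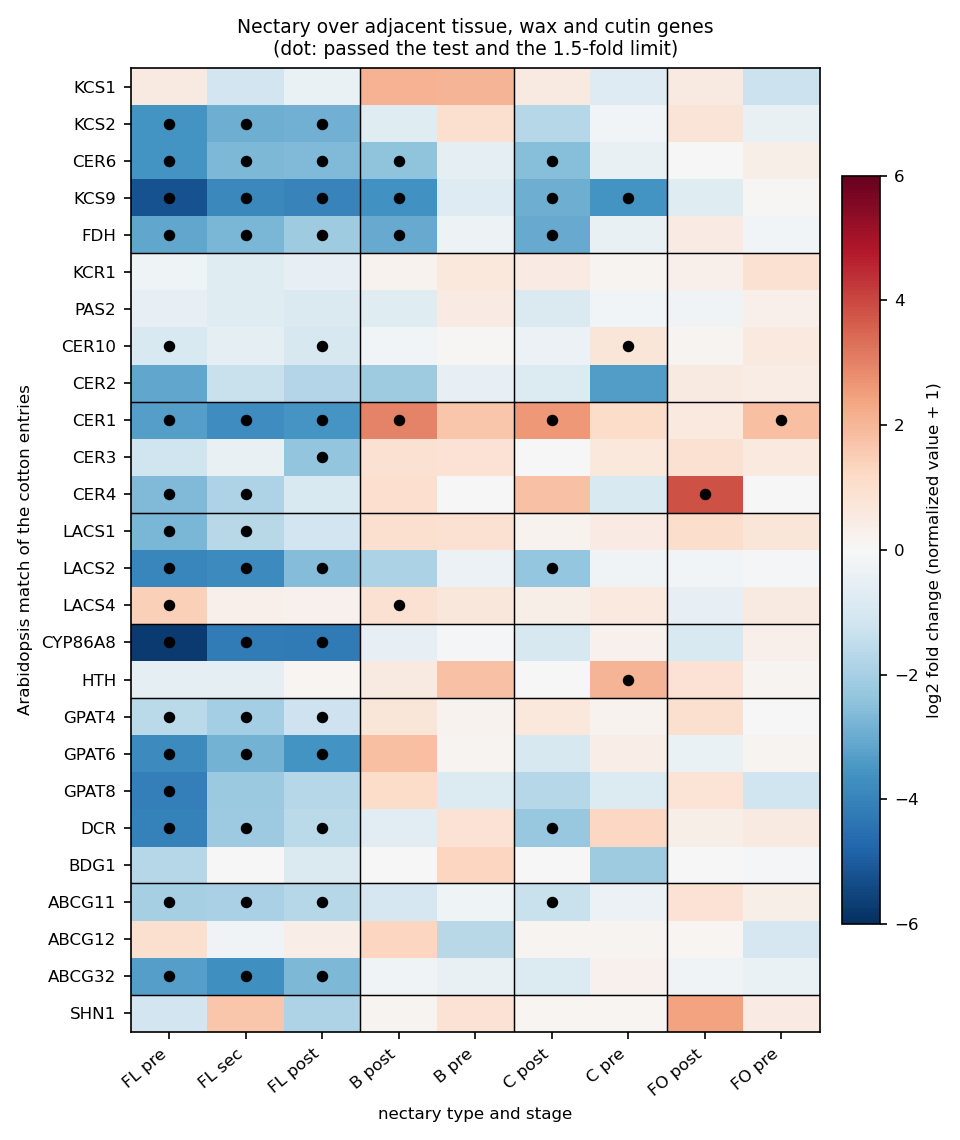
Heat map of the log2 fold change of nectary over adjacent tissue for the 26 genes (down the page, grouped by role) in 9 comparisons (across: floral pre-secretory, secretory and post-secretory, then bracteal, circumbracteal and foliar, each post- and pre-secretory). Blue is lower and red higher in the nectary, and a dot marks a call. The 3 floral columns hold 16, 14 and 14 dots for genes that were lower, and CER1 is blue in them and red in the extrafloral columns.

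The condensing enzymes of the elongase, which fix the chain length that waxes reach, were lower at all 3 stages for 4 of the 5 genes. CER6 (AT1G68530), the main condensing enzyme of wax synthesis in Arabidopsis, had normalized values of 156 and 137 in pre-secretory nectaries against 1804, 3017 and 1040.0 in adjacent tissue. During secretion it stood at 142, 332 and 406 in nectaries against 1364, 1686 and 2320.2, and after secretion at 189, 273 and 366 against 1819, 1358 and 1937. The groups did not overlap at any stage, and the log2 fold changes were -3.60 ± 0.50 (SE, adjusted p = 2.97e-06), -2.70 ± 0.45 (SE, adjusted p = 4.84e-05) and -2.66 ± 0.45 (SE, adjusted p = 0.000122). KCS9 (AT2G16280), another condensing enzyme, had 9.20 and 4.75 in nectaries against 169, 605 and 227 in adjacent tissue before secretion, 12.8, 13.3 and 9.08 against 158, 169.7 and 235 during it, and 28.8, 12.2 and 15.7 against 371, 248 and 308 after it. Every nectary lay below every adjacent sample, and the log2 fold changes were -5.22, -3.89 and -4.03. KCS2 (AT1G04220) and FDH (AT2G26250, FIDDLEHEAD, a condensing enzyme needed to keep epidermal surfaces from fusing) were lower by the same test at each stage, with log2 fold changes of -3.57, -2.92 and -2.87 for KCS2 and -3.10, -2.75 and -2.15 for FDH. The FDH call after secretion (adjusted p = 0.0198) was lost without nectary replicate 2 or 3 or adjacent replicate 1 or 3, with adjusted p between 0.0618 and 0.11.

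Of the 4 remaining genes of the elongase cycle, CER10 alone was called in the unpaired fit. KCR1 (AT1G67730), the reductase of the cycle, had 2229 and 983 in pre-secretory nectaries against 2197, 2285 and 1136 in adjacent tissue, and the groups overlapped. CER10 (AT3G55360), the enoyl reductase that ends the cycle, was lower before and after secretion (log2 fold changes -0.93 and -0.96), and those calls were lost without nectary replicate 1 before secretion (adjusted p = 0.0825) and without nectary replicate 3 after it (0.0688). CER2 (AT4G24510), which acts with CER6 to reach the longest chains, had 9.20 and 11.4 in pre-secretory nectaries against 121, 163 and 43.9, a log2 fold change of -3.10 ± 1.20 (SE, adjusted p = 0.075), and at -1.35 and -1.75 during and after secretion. Its groups did not overlap at any stage, though no difference passed the unpaired test. With replicates of the same number paired, KCR1 (-0.71, adjusted p = 0.0153) and CER10 (-0.59, 0.0407) were also called lower during secretion. Before secretion the paired fit called CER2 (-3.65, adjusted p = 0.00954) and PAS2, another gene of the cycle (-1.14, 0.0308), lower. Those pairs did not both deviate together (correlations 0.54 and -0.13). KCS1 (AT1G01120), unlike the other condensing enzymes, was not called at any floral stage. It had 471 and 222 before secretion against 283, 305 and 131 in adjacent tissue, and 36.3, 18.8 and 38.7 after it against 32.7, 44.1 and 42.2, with overlap. During secretion every nectary lay below every adjacent sample, at 29.2, 38.9 and 27.2 against 59.4, 92.2 and 65.3 (-1.15, adjusted p = 0.342).

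Of the enzymes that turn elongated acids into waxes, CER1 (AT1G02205), which forms alkanes together with CER3 (AT5G57800), was lower in all floral nectaries. It had 189 and 156 before secretion against 1073, 2076 and 2189 in adjacent tissue, 73.9, 206 and 134 during secretion against 1213, 2392 and 1652, and 171, 131 and 189 after it against 1641, 1836 and 2218. No nectary value reached an adjacent one, and the log2 fold changes were -3.30 ± 0.41 (SE, adjusted p = 5.64e-07), -3.72 ± 0.37 (SE, adjusted p = 7.07e-09) and -3.53 ± 0.37 (SE, adjusted p = 3.12e-08). CER3 passed the unpaired test only after secretion, at 40.9, 19.7 and 32.4 in nectaries against 223, 129 and 137 (log2 fold change -2.37 ± 0.47 SE, adjusted p = 0.00101). With replicates paired it was also called lower before secretion (-1.44, adjusted p = 0.0431). Before secretion CER3 had 75.7 and 69.3 against 154, 255 and 117 and during secretion 69.3, 95.0 and 123 against 120.3, 181 and 94.8, and the groups overlapped during secretion. CER4 (AT4G33790), the acyl-CoA reductase that makes primary alcohols, was lower before and during secretion (-2.65 and -1.84). These calls were lost without nectary replicate 2 before secretion (-1.99, adjusted p = 0.11), and during secretion without nectary replicate 1 (-0.95, adjusted p = 0.336) or any 1 adjacent sample (0.0543 to 0.107).

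The long-chain acyl-CoA synthetases, which activate fatty acids for both branches, split by gene. LACS2 (AT1G49430), known for its part in cutin synthesis, had 41.9 and 57.0 in nectaries against 711, 961 and 632 in adjacent tissue before secretion, 16.4, 22.8 and 36.3 against 249, 539 and 324 during it, and 83.8, 68.6 and 54.4 against 381, 494 and 374 after it. It was lower at each stage with no overlap (log2 fold changes -3.92, -3.82 and -2.59). LACS1 (AT2G47240), which in Arabidopsis serves wax and cutin synthesis, was lower before and during secretion (-2.76 and -1.66). Its pre-secretory change was -1.88 without nectary replicate 1 and -3.64 without nectary replicate 2, and the secretory call was lost without nectary replicate 2 (adjusted p = 0.0791), whereas with replicates paired LACS1 was also called lower after secretion (-1.16, adjusted p = 0.0094). LACS4 (AT4G23850) was the only gene of the set called higher in a floral nectary in the unpaired fit, with 2188 and 1605 before secretion against 508, 837 and 760.0 in adjacent tissue (log2 fold change 1.45 ± 0.28 SE, adjusted p = 0.000305). The call did not hold when samples were scaled by their totals (1.21, adjusted p = 0.052), and at the other 2 stages the LACS4 values of nectaries and adjacent tissue overlapped.

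The largest called log2 fold change of the set between floral nectaries and adjacent tissue was in a cutin gene. CYP86A8 (AT2G45970, LACERATA), a fatty acid hydroxylase, had 22.5 and 26.6 in pre-secretory nectaries against 1174, 2472 and 868 in adjacent tissue, a log2 fold change of -5.74 ± 0.73 (SE, adjusted p = 6.47e-07). It stood at 12.8, 29.4 and 38.6 during secretion against 226, 918 and 511, and at 67.0, 13.2 and 35.5 after it against 435, 656 and 813 (log2 fold changes -4.22 and -4.23). The post-secretory estimate ran between -4.76 without nectary replicate 1 and -3.63 without nectary replicate 2, and the call held in each case. GPAT6 (AT2G38110), the acyltransferase that joins cutin monomers to glycerol in Arabidopsis flowers, had 136 and 145 in nectaries against 1775, 3505 and 1311 in adjacent tissue before secretion, 77.5, 111 and 45.4 against 339, 939.6 and 461 during it, and 64.2, 60.2 and 39.7 against 575, 775 and 604 after it. Its groups were apart at every stage, with log2 fold changes of -3.83, -2.83 and -3.57.

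DCR (AT5G23940), an acyltransferase needed for cutin polymer in Arabidopsis, had 54.2 and 48.4 in pre-secretory nectaries against 854, 1637 and 477 (log2 fold change -4.07 ± 0.52 SE, adjusted p = 7.17e-07). The later estimates were smaller, at 50.2, 98.8 and 202 against 371, 604 and 419.7 during secretion (-2.17) and 221, 178 and 179.8 against 656, 568 and 532 after it (-1.60). GPAT4 (AT1G01610), which works beside GPAT8 (AT4G00400) in stem and leaf cutin, was lower at all 3 stages (-1.64, -2.03 and -1.24). The post-secretory calls of DCR and GPAT4 were each lost in 5 of the 6 fits that left out 1 sample (adjusted p up to 0.127 for DCR and 0.16 for GPAT4), and the pre-secretory GPAT4 call without nectary replicate 2 (0.061). GPAT8 was lower before secretion, at 0 and 15.2 against 22.8, 131 and 103 (-4.10 ± 1.18 SE, adjusted p = 0.0141), but without nectary replicate 1, the sample at 0, the change was -2.09 (adjusted p = 0.511), and the call was also lost without adjacent replicate 2 (0.0671). With replicates paired GPAT8 was called lower during secretion as well (-2.24, adjusted p = 0.018). HTH (AT1G72970, HOTHEAD, an oxidoreductase of cutin monomer synthesis) was not called in floral nectaries, and BDG1 (AT1G64670), an extracellular hydrolase-like protein, lay between 0 and 19.1 over all 51 samples.

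ABCG11 (AT1G17840) and ABCG32 (AT2G26910), transporters needed for cuticle lipids to leave the cell, were lower with no overlap at each stage. ABCG11 had 169.8 and 253 in nectaries against 619, 1034 and 905 in adjacent tissue before secretion, 139, 147 and 171 against 624, 636 and 525 during it, and 203, 188 and 194 against 771, 604 and 583 after it (log2 fold changes -2.00, -1.96 and -1.73). ABCG32 had 7.16 and 11.4 in nectaries against 101, 117 and 83.6 in adjacent tissue before secretion, 2.74, 2.85 and 12.5 against 58.6, 124 and 54.6 during it, and 39.1, 14.1 and 8.36 against 137, 105 and 105 after it (-3.33, -3.69 and -2.69). Without the third secretory nectary the ABCG32 change at anthesis was -4.30. ABCG12 (AT1G51500), the exporter of stem wax, was between 0 and 17.1 over all samples and was not called.

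SHN1 (AT1G15360), an AP2/ERF factor that activates cutin and wax genes in Arabidopsis, did not follow the enzymes at anthesis. Before secretion it had 260 and 181 in nectaries against 598, 749 and 249 in adjacent tissue, with overlap and no call. During secretion it had 774, 1846 and 803 in nectaries against 165, 404 and 543 in adjacent tissue, every nectary above every adjacent sample, and after secretion 80.0, 441 and 85.7 against 373, 633 and 606, with overlap. Neither difference passed the test, whereas with replicates of the same number paired SHN1 was called higher during secretion (log2 fold change 1.66, adjusted p = 0.0158) and lower after it (-1.85, 0.0144). Its cotton genes moved apart: LOC107953697 was higher in secretory nectaries, at 588, 1257 and 634 against 39.3, 155 and 231 (2.78 ± 0.83 SE, adjusted p = 0.0257), and LOC107958703 was lower at all 3 stages (-3.31, -3.07 and -3.22).

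Counted by single cotton genes, 46 of the 91 were lower and 2 higher in pre-secretory floral nectaries, where 8.73% of all cotton genes were called. During secretion 40 were lower and 1 higher (9.17% called over all) and after it 35 were lower (4.17%). Before secretion all 4 CER6 genes, all 7 CYP86A8 genes, all 4 ABCG32 genes, 4 of the 5 GPAT6 genes, 3 of the 4 DCR genes and 4 of the 7 CER1 genes were lower. Counting may have split reads between near-identical copies, so the value of a single copy is less certain than the sum.

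Some epidermal markers were also lower in floral nectaries. The 6 of 7 listed markers that had an entry, summed (nearly all of it LTP1, a lipid transfer protein, which was itself not called), reached 35076–36547 in pre-secretory nectaries against 70925–245890 in adjacent tissue, 20057–49501 against 51458–93370 during secretion, and 28510–31415 against 85048–98342 after it. Of the 6, 1, 2 and 1 were called lower at the 3 stages (ACR4 before and during secretion, PDF2 during and after it), and none was called higher. HDG2 stood at 95.1 and 117 before secretion against 95.8, 136 and 134, and GL2, whose groups overlapped at each stage, at 117 and 176 against 94.9, 139 and 167. After secretion HDG2 lay below adjacent tissue without a call, at 52.1, 37.6 and 60.6 against 123, 93.1 and 105. PDF1, also uncalled, lay below every adjacent sample at each stage. It had 52.2 and 30.4 against 772, 905 and 158 before secretion and 51.2, 30.1 and 28.2 against 91.1, 159 and 65.2 after it. Vascular markers (5 of 6 with an entry) summed to 1079.7–1207 in pre-secretory nectaries against 3307–8461, with 1, 0 and 1 called lower at the 3 stages. Fewer epidermal cells in a sample and less RNA of these genes per cell cannot be told apart, and the part of the markers in the result was not tested. Adjacent replicate 2 held the highest value of the whole series for 13 of the 26 genes, and without it the pre-secretory call of GPAT8 alone was lost. Fitting only the pre-secretory floral samples gave 10 calls in place of 17.

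Between stages, few cuticle genes moved in floral nectaries. Secretory against pre-secretory nectaries gave 2 calls of 26 (9.01% of all genes), post-secretory against secretory 4 (8.73%) and post-secretory against pre-secretory 4 (13.8%), shares of the same order as those of all genes. KCS1 had 471 and 222 before, 29.2, 38.9 and 27.2 during and 36.3, 18.8 and 38.7 after secretion, a log2 fold change of -3.33 ± 0.80 (SE, adjusted p = 0.00509) from the first stage to anthesis. Adjacent KCS1 values were 283, 305 and 131, 59.4, 92.2 and 65.3 and 32.7, 44.1 and 42.2, and they too were lower after secretion than before (-2.48). The nectary calls of KCS1 were lost without pre-secretory nectary replicate 1 (-2.78, adjusted p = 0.168, for anthesis and -2.86, 0.108, for the day after), and the adjacent one in 5 of 6 fits without 1 sample (adjusted p up to 0.13). KCR1 was lower at anthesis than before it (-1.48), a call lost without pre-secretory nectary replicate 1 (-0.89, adjusted p = 0.494) or secretory replicate 2, and at -2.07 without pre-secretory replicate 2.

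LACS4 was lower after than before secretion in floral nectaries, with 530.4, 705 and 554 after secretion against 2188 and 1605 before it (-1.66 ± 0.28 SE, adjusted p = 5.19e-05), and this call held without any 1 sample. DCR and LACS1 were higher after than before secretion (1.89 and 2.09). The LACS1 call was lost without pre-secretory nectary replicate 1 (1.21, adjusted p = 0.306) and the DCR call without either pre-secretory nectary (up to 0.0854). SHN1 was lower after secretion than during it (-2.85 ± 0.73 SE, adjusted p = 0.0103), lost without secretory replicate 2 or post-secretory replicate 1 or 3 (adjusted p up to 0.125) and at -3.64 without post-secretory replicate 2. In its most abundant cotton gene the same difference was 0.50 (adjusted p = 0.888). CER3 and LACS4 were lower (-1.61 and -0.92) and ABCG32 higher (1.62) after than during secretion. Each of these 3 calls was lost in 4 of 6 fits without 1 sample, with adjusted p up to 0.121, 0.199 and 0.332, and no post-secretory against secretory call remained in a fit of those samples alone. In the tissue adjacent to floral nectaries, 0 of 26 genes were called by limma between the secretory and pre-secretory stages (6 at an unadjusted p under 0.05, 4.04% of all genes called), 0 between post-secretory and secretory (2 unadjusted, 0.241%) and 1, KCS1, between post-secretory and pre-secretory (5.92%). No change in floral nectaries was called different from that in adjacent tissue, where the unadjusted p was under 0.05 for 3, 2 and 3 genes in the 3 tests of that difference, and limma called 0.396%, 0.0425% and 1.1% of all genes. The 3 of 6 listed green mesophyll markers with an entry, the light-harvesting genes LHCB1.3, LHCB2.1 and LHCA1, were higher in post- than in pre-secretory floral nectaries (3.10, 3.40 and 2.90), and the xylem marker IRX3 was lower at anthesis than before it (-2.29). Their part in these differences was not tested.

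**Figure D2:**
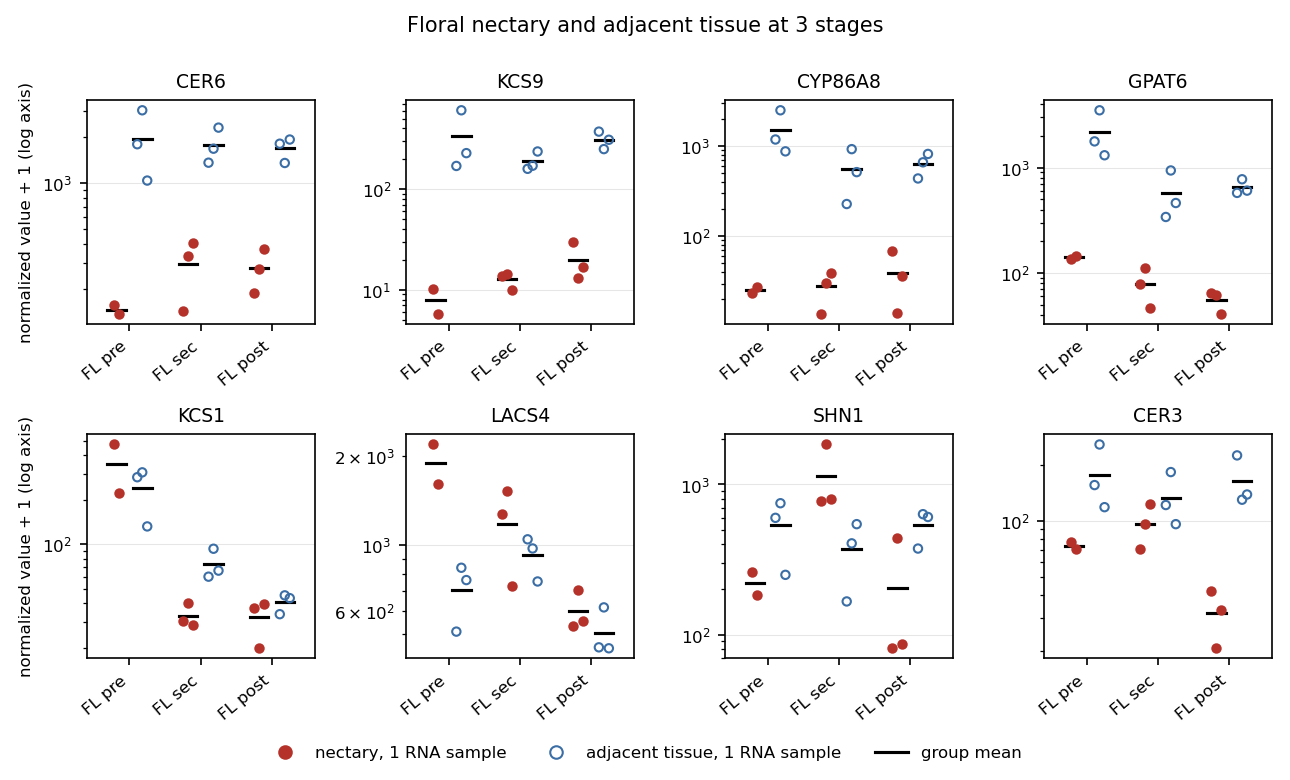
Normalized value plus 1 (log axis) of 8 genes in every floral sample, before, during and after secretion. Filled red circles are nectaries, open blue circles adjacent tissue and lines group means. CER6, KCS9, CYP86A8 and GPAT6 keep apart at all 3 stages, whereas SHN1 nectaries lie above adjacent samples only at anthesis.

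In the extrafloral nectaries, CER1 went the other way. It was higher in post-secretory bracteal nectaries, at 4886, 6496 and 3389 against 813, 713 and 377 in adjacent tissue (2.98 ± 0.37 SE, adjusted p = 1.79e-06), and in post-secretory circumbracteal nectaries, at 4358, 3459 and 3149 against 747, 354 and 782 (2.61 ± 0.37 SE, adjusted p = 1.84e-05). Both groups lay apart and both calls held without any 1 sample. Before secretion it had 3555 and 3001 in bracteal nectaries against 699 and 1493, 2701, 3476 and 2604 in circumbracteal nectaries against 1848, 876 and 1547, and 4228 and 2735 in foliar nectaries against 841 and 1128, every nectary above every adjacent sample. The foliar difference passed the test (1.80 ± 0.45 SE, adjusted p = 0.0335), though the call was lost without any 1 of the 4 samples (adjusted p 0.0959 to 0.392). The single secretory foliar nectary had 1903 against 483, with no replicate and no test, and post-secretory foliar nectaries had 604, 546 and 542 against 541, 248 and 376.

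A single cotton gene, LOC107962106, carried 57.1% of the CER1 value over all samples. It had 4597, 6308 and 3184 in post-secretory bracteal nectaries against 169, 316 and 45.4 in adjacent tissue (5.06 ± 0.75 SE, adjusted p = 5.07e-05), 4157, 3187 and 2886 in circumbracteal nectaries against 153, 65.6 and 12.8 (6.01 ± 0.75 SE, adjusted p = 3.59e-06) and 316, 458 and 406 in foliar nectaries against 9.50, 2.63 and 3.72 (6.11 ± 0.75 SE, adjusted p = 8.08e-07). In floral nectaries the same gene was lower than in adjacent tissue before and after secretion (-2.87 and -2.88), with 17.4 and 9.50 against 159.7, 126 and 50.0 before secretion. This CER1 copy thus stood on opposite sides of its adjacent tissue in floral and extrafloral nectaries.

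Another copy, XP_016738762.1, was lower in nectaries wherever it was called. It had 15.5, 53.2 and 25.0 in secretory floral nectaries against 602, 1081 and 761, and 5.82, 8.01 and 7.67 in post-secretory bracteal nectaries against 172, 112 and 88.5, with log2 fold changes of -4.79 and -3.89. In circumbracteal nectaries the same entry was lower before and after secretion (-3.88 and -4.07). Between stages, a further copy, LOC107900564, was much lower in post-secretory extrafloral nectaries than in pre-secretory ones, at 16.8, 7.48 and 14.0 against 1582 and 781 in foliar nectaries (-6.41). Adjacent leaf tissue was lower too, at 10.4, 2.63 and 2.79 against 481 and 388. Among the 7 CER1 genes, 1 was higher and 1 lower in post-secretory bracteal nectaries, 1 higher and 3 lower in circumbracteal and 1 higher and 1 lower in foliar nectaries, so the sum hides opposite differences. These counts show direction only, as the share of all cotton genes called is not given for these comparisons.

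**Figure D3:**
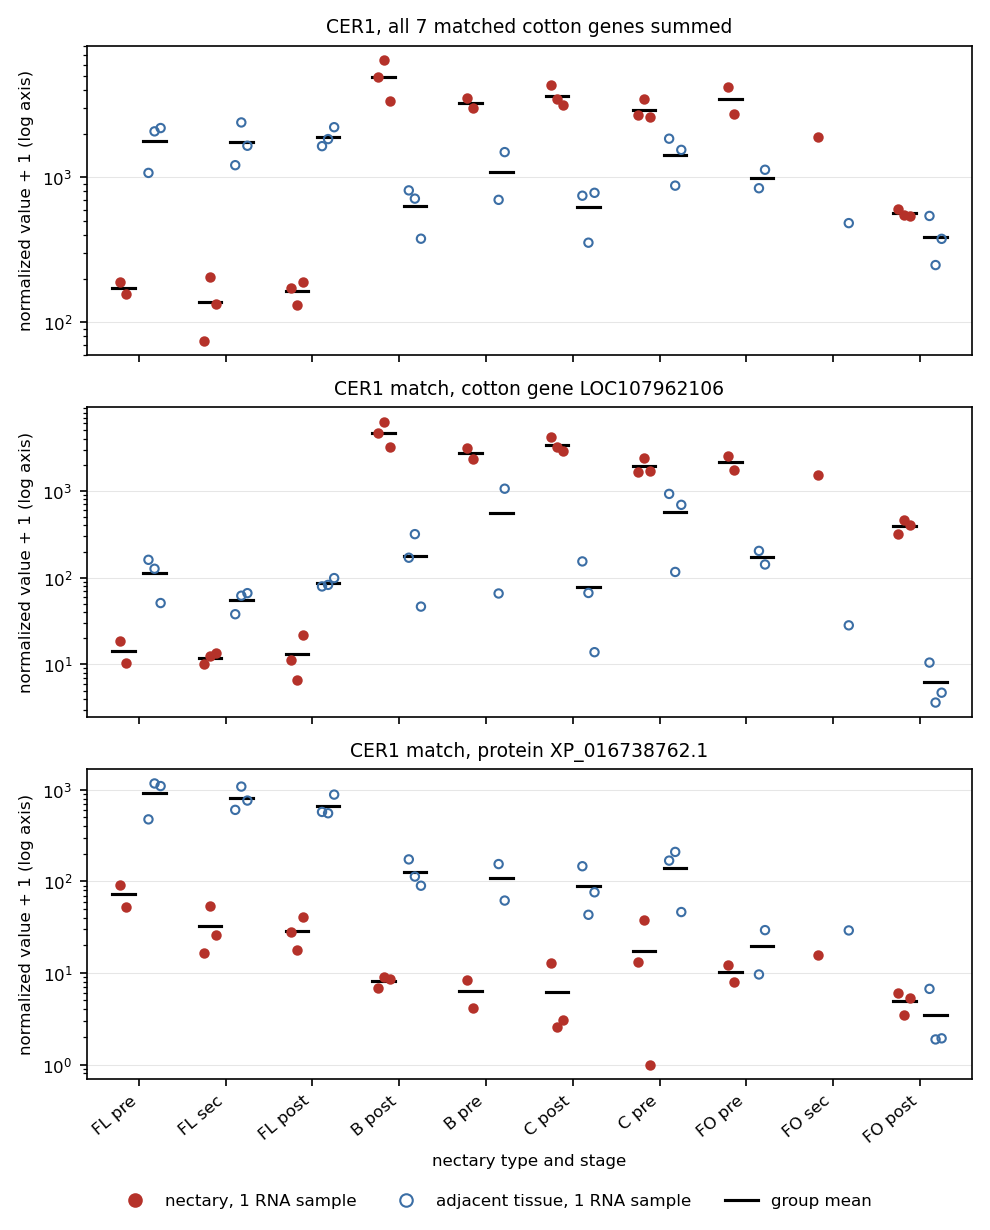
Normalized value plus 1 (log axis) of the CER1 sum and of the cotton genes LOC107962106 and XP_016738762.1 in every sample, by nectary type and stage. Filled red circles are nectaries, open blue circles adjacent tissue and lines group means. LOC107962106 lies above adjacent tissue in extrafloral and below it in floral nectaries, and XP_016738762.1 lies below it in floral, post-secretory bracteal and circumbracteal nectaries.

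Of the 5 condensing enzymes, CER6, KCS9 and FDH were lower in post-secretory bracteal and circumbracteal nectaries, whereas the sums of KCS1 and KCS2 were not called there in the unpaired fit. Their single cotton genes went both ways. In each of these types, 2 of the 4 KCS1 genes were higher and 1 lower, and 1 of the 5 KCS2 genes was higher and 1 lower. The share of all cotton genes called is not given for these comparisons, so these counts show direction only. In bracteal nectaries 5 of 26 genes were called, 2 higher and 3 lower (3.34% of all genes called), in circumbracteal nectaries 7, 1 higher and 6 lower (7.33%), and in foliar nectaries 1 (2.56%). CER6 had 252, 194 and 179 in bracteal nectaries against 1263, 1036 and 988 (-2.39 ± 0.45 SE, adjusted p = 0.000776) and 341, 130.3 and 337 in circumbracteal nectaries against 1256, 1451 and 1607 (-2.53 ± 0.45 SE, adjusted p = 0.000357). FDH had 24.4, 50.0 and 62.4 against 217, 529.9 and 369 in the bracteal pair (-3.01) and 25.1, 46.5 and 122 against 201, 482 and 856 in the circumbracteal pair (-3.03, and -3.63 without circumbracteal nectary replicate 3). KCS1 lay the other way in the bracteal pair, at 131, 182 and 89.2 against 21.1, 52.5 and 23.8, with no overlap (2.07, adjusted p = 0.114). In foliar nectaries, by contrast, CER6 and FDH overlapped with adjacent tissue, at 964, 311 and 307 against 1075, 266 and 318 for CER6 and 1247, 598 and 698 against 1173, 384 and 427 for FDH.

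KCS9 was lower in post-secretory bracteal nectaries (-3.61) and in circumbracteal nectaries before (-3.58) and after secretion (-2.94), with 5.82, 1.00 and 9.59 against 42.2, 58.0 and 102 in the bracteal pair. The bracteal call was lost without nectary replicate 2 (-2.91, adjusted p = 0.0674), the pre-secretory circumbracteal call without adjacent replicate 2 (0.059), with estimates between -4.66 and -2.68 without nectary replicate 2 and 1, and the post-secretory one without nectary replicate 1 or adjacent replicate 1 or 3 (up to 0.0555). DCR, LACS2 and ABCG11 were lower in post-secretory circumbracteal nectaries (-2.28, -2.32 and -1.34). The DCR change was -2.89 without nectary replicate 3, the LACS2 call was lost without nectary replicate 2 (adjusted p = 0.116), and the ABCG11 call without nectary replicate 1 or adjacent replicate 3 (up to 0.0619). LACS4 was higher in post-secretory bracteal nectaries (954, 1087 and 848 against 484, 585 and 469.8, 0.91 ± 0.25 SE, adjusted p = 0.0314), a call lost in 5 of 6 fits without 1 sample (adjusted p up to 0.149) and with scaling by totals (0.0723). With replicates paired the bracteal post-secretory count was 8, adding KCS1 (2.07) and LACS1 (0.94) as higher and ABCG11 (-1.02) as lower. The paired fit also called CER4 higher (1.74, adjusted p = 0.0261) and KCS2 lower (-1.73, 0.0232) in post-secretory circumbracteal nectaries.

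The sum of the epidermal markers, nearly all of it LTP1, was lower in these nectaries as well, at 15946–28375 in post-secretory bracteal nectaries against 50021–80271 in adjacent tissue and 19518–38705 against 100750–110520 in the circumbracteal pair. Of the 6 markers, 1 (ACR4) was lower in the bracteal and 2 (PDF2 and LTP1) in the circumbracteal pair. GL2 ran the other way, uncalled and with overlap, at 112, 327 and 177 against 89.3, 177 and 138 in the bracteal and 121, 192 and 252 against 103, 112 and 133 in the circumbracteal pair, and it was called higher in post-secretory foliar nectaries (1.81, adjusted p = 0.0176). The part of these markers in the result was not tested. Fitting only the samples compared left 2 calls each in the bracteal and circumbracteal post-secretory comparisons.

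Before secretion few of these genes were called between extrafloral nectaries and their adjacent tissue. By limma, 0 of 26 were called in bracteal nectaries (4 at an unadjusted p under 0.05), a comparison of 2 against 2 samples in which only 0.0566% of all genes were called, so it says little about a lack of difference. The CER1 copies LOC107962106 and XP_016738762.1 lay apart there without passing the test (3.36, adjusted p = 0.211, and -4.05, 0.122). In foliar nectaries CER1 alone was called (1.22%). In circumbracteal nectaries 3 were called (5.89%): KCS9 lower, HTH higher at 492, 134 and 392 against 92.1, 45.6 and 83.8 (2.05) and CER10 higher at 884, 921 and 1108 against 766, 543 and 487 (0.72). The HTH call was lost in 3 of 6 and the CER10 call in 4 of 6 fits without 1 sample (adjusted p up to 0.113 and 0.194), and neither held with scaling by totals or with weights for the spread of each group, under which no circumbracteal pre-secretory call remained. With replicates paired, CER1 (1.095, adjusted p = 0.0221) and DCR (1.26, 0.0417) were also called higher there and CER2 (-3.34, 0.00972) lower. Samples of the same number deviated together only weakly in these groups.

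In post-secretory foliar nectaries CER4 was the 1 gene called, at 132, 415 and 323 against 18.0, 7.90 and 36.3 in adjacent tissue (3.83 ± 0.59 SE, adjusted p = 5.71e-05). The groups were far apart and the call held without any 1 sample. Its cotton gene LOC107961703 had 117, 399 and 250.2 against 5.70, 4.39 and 6.51 (5.14). The adjacent level was also lower after secretion: adjacent CER4 was 18.0, 7.90 and 36.3 in post-secretory against 445 and 401 in pre-secretory samples (-4.52 ± 0.66 SE, adjusted p = 3.38e-06). Foliar nectaries had 132, 415 and 323 against 420.1 and 453 and were not called. The difference between the nectary and the adjacent change was itself not called for CER4, with 0 of 26 genes called in that foliar test. With replicates paired, LACS1 (1.05), ABCG11 (0.87) and SHN1 (2.40) were also higher in post-secretory foliar nectaries. SHN1 had 67.9, 25.8 and 45.7 against 19.0, 5.27 and 3.72 there, with no overlap.

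From the pre- to the post-secretory stage, 4 of the 7 cutin hydroxylase, acyltransferase and polyester genes fell in all 3 extrafloral nectaries. In bracteal nectaries 7 of 26 genes were called, 6 lower and 1 higher (6.65% of all genes called), in circumbracteal nectaries 13, 11 lower and 2 higher (26.6%, 12.9% lower), and in foliar nectaries 12, all lower (21.4%, 13.3% lower). LACS2, CYP86A8, HTH, GPAT6, DCR and SHN1, 6 genes in all, were lower in every type. GPAT4 (-0.25, -0.88 and -1.06) and GPAT8 (0.52, -0.04 and 0.96) were called in none, and BDG1 in foliar nectaries alone. The pre-secretory organs were young squares and growing leaves, and the post-secretory ones were weeks older or fully grown, so stage and age of the organ cannot be told apart.

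CYP86A8 had 0, 5.00 and 6.72 in post-secretory against 352 and 295 in pre-secretory bracteal nectaries, 5.91, 1.55 and 2.09 against 545, 295 and 308 in circumbracteal and 15.9, 9.14 and 10.5 against 577 and 431 in foliar nectaries. The post-secretory samples were near 0 in the first 2 types, and the log2 fold changes were -6.49 ± 0.73 (SE, adjusted p = 4.87e-07), -6.60 ± 0.65 (SE, adjusted p = 3.22e-09) and -5.32 ± 0.73 (SE, adjusted p = 2.43e-06). The bracteal estimate was -5.57 without post-secretory replicate 1, the sample at 0. GPAT6 had 14.0, 36.0 and 22.1 against 282 and 238, 8.86, 3.10 and 12.5 against 536, 392 and 263 and 41.1, 16.6 and 27.2 against 1006 and 737 in the same order of types (-3.48, -5.54 and -4.97). DCR had 51.2, 44.0 and 30.7 against 371 and 664, 16.2, 6.20 and 38.7 against 1245, 594 and 864 and 58.7, 45.7 and 31.6 against 800.1 and 573 (-3.56, -5.66 and -3.92). These 9 calls held without any 1 sample, and the circumbracteal DCR change was -6.27 without post-secretory nectary replicate 3. The bracteal CYP86A8 call did not hold in a fit of only the samples compared (adjusted p = 0.0577).

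LACS2 had log2 fold changes of -4.27, -3.61 and -2.52 in the same nectaries, and its foliar call was lost without pre-secretory replicate 1 (adjusted p = 0.0929). HTH had -2.65, -3.28 and -1.85, and its calls were lost without either bracteal pre-secretory nectary and in 3 of 5 foliar fits without 1 sample (adjusted p up to 0.15). SHN1 had 150.1, 97.1 and 36.5 after against 439 and 562 before secretion in bracteal nectaries (-2.60), 114, 51.2 and 57.5 against 841, 546 and 539 in circumbracteal (-3.16) and 67.9, 25.8 and 45.7 against 591 and 359.9 in foliar nectaries (-3.39). The bracteal SHN1 call was lost in 4 of 5 fits without 1 sample (adjusted p up to 0.348) and the foliar one without pre-secretory replicate 1 (0.0845). The ABCG32 exporter fell in circumbracteal and foliar nectaries (-3.11 and -2.07), the foliar call being lost without pre-secretory replicate 2 (adjusted p = 0.134). BDG1 was listed at 0 in every post-secretory foliar nectary, against 19.1 and 2.63 before secretion, and its call was lost without pre-secretory replicate 1 (adjusted p = 0.393).

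Among the 12 elongation and wax genes the calls went both ways: 1 was higher in bracteal nectaries, 2 were higher and 3 lower in circumbracteal nectaries, and 4 were lower in foliar nectaries. CER4 was higher after than before secretion in circumbracteal nectaries, at 1919, 1559 and 1646 against 154, 275 and 59.1 (3.63 ± 0.59 SE, adjusted p = 1.62e-05, and 4.14 without pre-secretory replicate 2), and in bracteal nectaries, at 1184, 635 and 594 against 101 and 206 (2.39 ± 0.66 SE, adjusted p = 0.0197), where the call was lost without either pre-secretory nectary or post-secretory replicate 1 (adjusted p up to 0.214). CER1 passed the test in foliar nectaries alone, lower after secretion than before (-2.59 ± 0.41 SE, adjusted p = 2.25e-05). CER6 was not called between stages in any extrafloral nectary. In circumbracteal nectaries KCS9 was higher (2.58, between 1.68 and 3.66 without pre-secretory replicate 1 and 2, adjusted p up to 0.132) and FDH lower (-1.58, between -2.19 and -1.07 without post-secretory replicate 3 and 1, up to 0.227), PAS2 (AT5G10480) and CER10 were lower (-1.95 and -1.08), and ABCG11 was lower (-0.84, lost in 4 of 6 fits without 1 sample, up to 0.205), though its most abundant cotton gene was higher (1.81, adjusted p = 0.0276). In foliar nectaries KCR1, PAS2 and CER10 were lower (-1.32, -1.97 and -0.87), each lost without at least 1 sample, at adjusted p up to 0.318, 0.355 and 0.161.

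**Figure D4:**
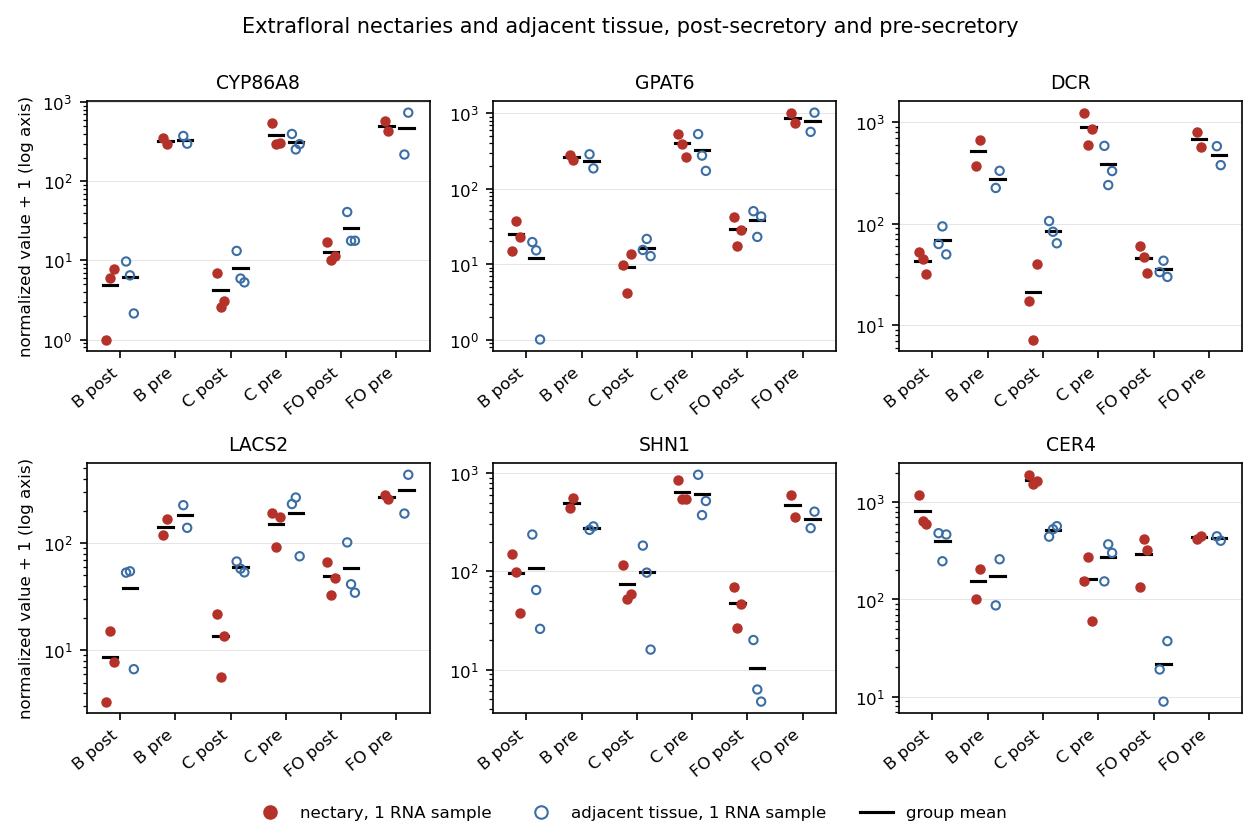
Normalized value plus 1 (log axis) of 6 genes in every post- and pre-secretory sample of bracteal, circumbracteal and foliar nectaries. Filled red circles are nectaries, open blue circles adjacent tissue and lines group means. CYP86A8 and GPAT6 are lower after than before secretion in nectaries and adjacent tissue alike, whereas CER4 nectaries are higher after secretion in the bracteal and circumbracteal types.

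The adjacent tissues changed between stages as well. In tissue adjacent to bracteal nectaries 5 of 26 genes were called between post- and pre-secretory stages, 4 lower and 1 higher (9.21% of all genes called), at the circumbracteal site 9, 8 lower and 1 higher (12.8%), and at the foliar site 12, 11 lower and 1 higher (22.3%). CYP86A8, GPAT6 and DCR, 3 genes, were lower in all of them. CYP86A8 had 8.69, 5.47 and 1.13 after against 373 and 298 before secretion at the bracteal site (-6.03, and -5.40 without post-secretory replicate 3), 12.2, 4.90 and 4.28 against 396, 252 and 294 at the circumbracteal site (-5.38) and 39.9, 16.7 and 16.8 against 217 and 737 at the foliar site (-4.10, between -4.98 and -3.22 without pre-secretory replicate 1 and 3). At the bracteal site the GPAT6 change (-5.11) was -3.74 without post-secretory replicate 3, the sample at 0, and the DCR call (-2.04) was lost in 2 of 5 fits without 1 sample (adjusted p up to 0.136). CER6 was higher there after secretion, at 1263, 1036 and 988 against 262 and 299 (1.96 ± 0.50 SE, adjusted p = 0.00912), a call lost in 2 of 5 fits without 1 sample (adjusted p up to 0.0772). SHN1 was lower in tissue adjacent to foliar nectaries, at 19.0, 5.27 and 3.72 against 274 and 404 (-5.31 ± 0.82 SE, adjusted p = 7.38e-06, and -5.94 without post-secretory replicate 1).

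Whether nectaries changed by a different amount from their adjacent tissue was tested for each type. Of 26 genes, 1 was called in the circumbracteal type (9 at an unadjusted p under 0.05, 0.771% of all genes called). DCR fell there by 5.66 in nectaries and by 2.12 in adjacent tissue on the log2 scale, a difference of -3.54 ± 0.66 (SE, adjusted p = 0.00439). It ran between -4.15 and -2.92 without post-secretory nectary replicate 3 and 2, and did not hold in a fit of those samples alone (adjusted p = 0.28) or with weights for each group's spread (0.117). In the bracteal and foliar types limma called 0 of 26, with 5 and 3 at an unadjusted p under 0.05, where 0.0354% and 0.142% of all genes were called.

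Markers of dividing cells moved with the stage. The 2 of 5 listed markers that had an entry summed to 1.16–24.0 in post-secretory against 165–417 in pre-secretory bracteal nectaries, 0–22.2 against 217–387 in circumbracteal and 1.68–7.02 against 426–506 in foliar nectaries. In adjacent tissue they summed to 0–2.27 against 103–211, 4.90–11.1 against 86.4–153 and 1.86–10.5 against 477–535. Both markers were called lower in all 6 comparisons. Of the 6 epidermal markers, PDF1 and ACR4 were lower in post-secretory bracteal nectaries, PDF2, PDF1 and ACR4 lower and GL2 higher (2.46, adjusted p = 9.26e-05) in circumbracteal nectaries, and PDF1 and LTP1 lower in foliar nectaries. Of the 5 vascular markers, the phloem sucrose transporter SUC2 was higher (1.32, 1.64 and 1.82) and the sieve element protein SEOR1 lower (-3.06, -4.17 and -3.85) in the 3 types, and the xylem protease XCP1 was lower in circumbracteal and foliar nectaries (-2.80 and -3.86). LHCB1.3 was lower in foliar nectaries (-3.37). The part of these markers in the result was not tested.

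Set against the mean of the 3 extrafloral nectaries at the stage of the same name, floral nectaries differed in 11 of 26 genes before secretion (2 higher and 9 lower, 22.5% of all genes called) and in 9 after it (4 higher and 5 lower, 15.1%). Floral samples came from the days around anthesis, and extrafloral ones from young squares, organs weeks past anthesis, or leaves. Nectary type and age of the organ therefore cannot be told apart here. Before secretion CER1 (-4.21), CYP86A8 (-3.94), DCR (-3.67) and LACS1 (-3.10) were lower and KCS1 (2.31) and LACS4 (1.60) higher in floral nectaries on the log2 scale. After secretion CER1 (-3.71), CER3 (-2.88) and CER4 (-1.60) were lower, whereas DCR (2.60), CYP86A8 (2.56), LACS2 (2.11) and GPAT6 (1.65) were higher. Pre- and post-secretory KCS1 calls were lost without 1 sample (adjusted p up to 0.258 and 0.241), LACS1 before secretion was -3.98 and -2.23 without floral nectary replicate 2 and 1, CYP86A8 after secretion was 3.17 without floral replicate 2, and the CER4 and GPAT6 calls after secretion were lost without 1 sample (up to 0.118 for each).

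The difference between nectary and adjacent tissue was itself compared between types, which again differed in age of the organ between floral and extrafloral samples. Floral nectaries had the more negative difference in 14 of 26 genes before secretion (5.43% of all genes called, 2.91% lower) and in 8 after it (3.98%, 1.79% lower), none the other way. The widest gaps before secretion were CYP86A8 (-5.91), DCR (-4.95), CER1 (-4.82) and GPAT6 (-4.07), and after secretion CER1 (-5.60), GPAT6 (-3.70) and CYP86A8 (-3.44, between -3.96 and -2.83 without floral nectary replicate 1 and 2). Among extrafloral types after secretion, bracteal and circumbracteal nectaries were called different in 0 of 26 genes by limma (2 at an unadjusted p under 0.05, 0.0354% of all genes called). Bracteal nectaries differed from foliar ones in 4 genes (0.63%), FDH and ABCG11 lower and CER1 and LACS4 higher, and circumbracteal nectaries in 2 (0.531%), FDH and ABCG11 lower. The CER1 difference turned to -1.05 (adjusted p = 1.0) in LOC107962106, its most abundant cotton gene, and the bracteal count was 1 with replicates paired or with scaling by totals. Each of these 6 calls was lost without at least 1 sample (adjusted p up to 0.164), and the circumbracteal FDH difference was -4.11 without circumbracteal nectary replicate 3.

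Among other genes of the pathway, taken from lists chosen by function, some were lower in floral nectaries too, where 7.73%, 7.85% and 2.84% of all genes were lower before, during and after secretion. Of 9 other wax genes with an entry (17 listed), 6, 4 and 2 were lower before, during and after secretion and 1 was higher, before secretion. Of 7 other cutin genes (9 listed) 5, 6 and 4 were lower and none higher. CUS2, a cutin polymerase, had 80.8 and 70.3 in pre-secretory nectaries against 9992, 8883 and 2264 in adjacent tissue (-6.26 ± 0.91 SE, adjusted p = 6.14e-06), 8.21, 28.5 and 81.7 against 308, 2450.0 and 1043 during secretion and 229, 44.2 and 101 against 583, 1361 and 1026 after it (-5.04 and -3.19). CYP77A4, a cytochrome P450 that oxidizes fatty acids, was lower at the 3 stages (-4.33, -3.68 and -3.37) but higher in post-secretory bracteal and pre-secretory foliar nectaries (1.63 and 2.05).

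Of 8 other cuticle regulators (11 listed), 6, 4 and 4 were lower in floral nectaries and 1 higher, before secretion. MYB16 and MYB106, related factors that promote cuticle formation in Arabidopsis, were lower at every stage (-2.76, -2.19 and -2.85 for MYB16 and -3.50, -3.64 and -4.96 for MYB106). MYB94, an activator of wax genes, was lower in floral nectaries (-2.38, -2.28 and -1.33) and also in post-secretory bracteal nectaries, at 58.2, 33.0 and 57.6 against 270.5, 536 and 428 (-3.02 ± 0.38 SE, adjusted p = 2e-06), and circumbracteal ones (-2.23). Between post- and pre-secretory extrafloral nectaries, 4, 4 and 6 of the 7 other cutin genes were lower in the bracteal, circumbracteal and foliar types and none higher. Over all 14133 genes tested, 629, 1824 and 1878 were lower in the same comparisons. CUS2 had 31.0, 8.31 and 7.90 in post-secretory against 8567 and 4055 in pre-secretory foliar nectaries (-8.73 ± 0.91 SE, adjusted p = 3.05e-08). In adjacent leaf tissue it was lower too, at 19.0, 3.51 and 3.72 after secretion against 3595 and 9511 before it.

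FATB, the plastid thioesterase that releases the saturated fatty acids from which waxes and cutin are made, was the wax gene that was higher. It had 8153 and 3452 in pre-secretory floral nectaries against 738, 982 and 590.2 in adjacent tissue (2.81 ± 0.41 SE, adjusted p = 5.98e-06), but 639, 822 and 1035 against 525, 596 and 463 at anthesis, which was not called. It was also higher in post-secretory bracteal nectaries, at 4397, 5954 and 3728 against 571, 751 and 487 (2.95 ± 0.36 SE, adjusted p = 1.7e-06), circumbracteal nectaries, at 3220.1, 3604 and 3778 against 778, 564 and 586 (2.47), and foliar nectaries, at 2303, 1674 and 1965 against 513, 505 and 381 (2.09). None of these groups overlapped. Pre-secretory circumbracteal nectaries were higher too, with overlap, at 2930.1, 3781 and 2164 against 3378, 683 and 872 (1.19).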

How the data were processed

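Excised nectaries and adjacent tissue were sequenced as RNA, and 51 RNA samples in 2 runs each were analysed (120 samples are labelled, and 18 of a second set were not analysed here). That set holds all secretory bracteal and circumbracteal samples and further secretory foliar ones. The tested extrafloral changes between stages therefore skip secretion. The authors deposited 1 value per protein entry and run: whole numbers scaled by length and rounded, treated as a score and not as counts, so count tests were not used and depth per gene is unknown. The aligner settings behind the values are not given in the sources used here. Runs were summed, entries were summed by listed Arabidopsis match (48158 of 49663 entries had one), samples were divided by their upper quartile (75th percentile) and log2(value + 1) was fitted with limma 3.58.1 (R 4.3.3), 1 coefficient per group over all 51 samples, with trend. Genes reaching 10 in at least 2 samples were tested (14133 by match, 45337 cotton genes). P-values were adjusted by Benjamini-Hochberg, and calls were made below 0.05 where the fold change reached 1.5. Tables and figures used Python 3.11.15, pandas 2.3.3, numpy 2.4.6 and matplotlib 3.10.9. The fit was also run on simulated data with independent samples and equal spread in all groups. The real groups differ in spread, so that run does not vouch for single calls.

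All members may be named; cotton genes are named where they have the highest mean of their match or are among the 2 largest called rises or falls of a comparison with a mean of at least 100 and no overlap. Names came from RefSeq for 41566 entries; its build differs, so no positions or sequences are given. The members and lists were chosen with earlier results of these data known. Samples of the same number, nectary and adjacent, deviated together in secretory floral (correlations 0.39, 0.17 and 0.37), post-secretory floral (0.18, 0.11 and 0.17), bracteal (0.44, 0.32 and 0.24) and foliar samples (0.29, 0.27 and 0.25), where paired fits are given. In pre-secretory floral samples the correlations were 0.54 and -0.13, so paired calls given there are less certain. The same holds for circumbracteal samples, with correlations of 0.09, 0.07 and 0.11 before and 0.18, 0.03 and 0.28 after secretion. Alternatives were a fit of only the samples compared, no filter, a pseudocount of 10, median-of-ratios and total scaling, each run alone, a replicate block, group weights, cotton genes kept separate and leaving out each sample.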

Additional observations from a re-analysis of the deposited data

Results flagged for a closer look

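The tests of a difference between nectary types or between tissues passed the threshold in limma (Benjamini-Hochberg adjusted p under 0.05) for 29 results of the 26 cuticle genes, each given here as the difference of 2 log2 fold changes. Before secretion, the nectary over adjacent change was lower in floral than in the mean of the 3 extrafloral types for the condensing enzymes KCS2 (-3.69), CER6 (-3.38), KCS9 (-3.78) and FDH (-2.80), the reductase CER10 (-1.40) and the alkane gene CER1 (-4.82). The same held for the synthetases LACS1 (-3.48) and LACS2 (-3.71), the cutin genes CYP86A8 (-5.91), GPAT4 (-1.80), GPAT6 (-4.07) and DCR (-4.95), and the exporters ABCG11 (-1.91) and ABCG32 (-3.13).

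After secretion it was lower in floral nectaries for the wax genes CER1 (-5.60), CER3 (-2.96) and CER4 (-3.13), and for LACS1 (-1.89), CYP86A8 (-3.44), GPAT4 (-2.01), GPAT6 (-3.70) and ABCG32 (-2.29). Among extrafloral types after secretion, the change in bracteal nectaries against that in foliar ones was lower for FDH (-3.49) and ABCG11 (-1.88) and higher for CER1 (2.37) and LACS4 (1.42). The CER1 difference was -1.05 in its most abundant cotton gene, and the count of 4 was 1 with replicates paired or with scaling by totals. The change in circumbracteal nectaries against that in foliar ones was lower for FDH (-3.51) and ABCG11 (-2.21). Between stages, the post-secretory over pre-secretory change of DCR was lower in circumbracteal nectaries than in their adjacent tissue (-3.54). Markers of epidermis and of dividing cells differ between the same groups, and their part in these differences was not tested. Floral and extrafloral samples of the same stage name also differed in age of the organ.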

How the results depend on the processing

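Of 180 called results of single genes, no filter kept all calls, median-of-ratios scaling lost 1, run 2 alone 4, a pseudocount of 10 lost 5, run 1 alone 11, group weights 15, the replicate block 19, total scaling 20, the most abundant cotton gene 33 and a fit of only the samples compared 57, while 79 lost the call in at least 1 fit without 1 sample. Only the most abundant cotton gene reversed directions: SHN1 in floral nectaries after over during secretion (0.50), ABCG11 in circumbracteal nectaries after over before secretion (1.81), and CER1 bracteal over foliar, nectary minus adjacent (-1.05). Total scaling moved the median of all genes by up to -0.54 (secretory floral nectary over adjacent). Its calls higher and lower were 0 and 17 in place of 1 and 16 for pre-secretory floral nectaries, 0 and 2 in place of 2 and 1 for pre-secretory and 1 and 3 in place of 2 and 3 for post-secretory circumbracteal and bracteal nectaries. The cause of these changes was not tested.

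Counts of the 26 genes, nectary over adjacent tissue, were as follows. A fit of only the samples compared gave 10 for pre-secretory floral (17 in the fit over all samples), 2 for post-secretory bracteal (5), 0 for pre-secretory (3) and 2 for post-secretory circumbracteal (7) and 0 for pre-secretory foliar nectaries (1). The replicate block gave 8 for post-secretory bracteal, 6 for pre-secretory circumbracteal, 0 for pre-secretory and 4 for post-secretory foliar nectaries (1). The paired fit moved no other such count by over 1.5 times. Group weights gave 0 and 4 for pre- and post-secretory circumbracteal and 5 for post-secretory foliar nectaries, total scaling 0 for pre-secretory foliar, and run 2 alone 2 for post-secretory foliar nectaries. Without 1 sample, counts ran 15–17, 13–14 and 10–14 for floral nectaries by stage, 4–5 for post-secretory bracteal, 0–4 and 5–7 for pre- and post-secretory circumbracteal, and 0–0 and 1–4 for pre- and post-secretory foliar nectaries.

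Between stages in nectaries, a fit of only the samples compared gave 0 for secretory over pre-secretory (2) and post-secretory over secretory (4) floral and 2 for bracteal nectaries (7), the block 4 for secretory over pre-secretory, total scaling 2 for post-secretory over secretory floral, and group weights 8 for circumbracteal nectaries (13). Without 1 sample they ran 0–3, 0–6 and 1–5 for the 3 floral contrasts, 4–6 for bracteal, 11–13 for circumbracteal and 5–13 for foliar nectaries. In adjacent tissue, secretory over pre-secretory floral counts (0) were 2 with a pseudocount of 10, 1 with the block, 3 with weights and 0–1 without 1 sample. Post-secretory over secretory gave 1 with weights, and post-secretory over pre-secretory (1) gave 2 with a pseudocount of 10, run 2 alone or weights and 0–1 without 1 sample. Adjacent to bracteal nectaries (5) it was 2 in the narrower fit, 9 with total scaling and 3–6 without 1 sample, and adjacent to circumbracteal nectaries (9) 4 and 7–10, and adjacent to foliar nectaries 10–14.

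Between types, without 1 sample, floral over extrafloral nectaries ran 7–13 before and 5–9 after secretion, and with adjacent tissue subtracted 10–16 and 6–12. Bracteal over circumbracteal (0) gave 1 with run 1 alone. Bracteal over foliar (4) gave 1 in the narrower fit, with total scaling and with the block, 2 with run 1 alone and 0–4 without 1 sample. Circumbracteal over foliar (2) gave 0 in the narrower fit and with the block, 4 with a pseudocount of 10, 5 with run 1 alone and 0–5 without 1 sample. The difference of changes between nectary and adjacent tissue, summed over all types and stages (1), gave 0 in the narrower fit, 2 with a pseudocount of 10, total scaling or weights, and 1–2 without 1 sample. Groups of 2 or 3 samples limit all of these counts, and the secretory foliar pair has no test.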

Other observations

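Suberin genes, which make a polyester of inner walls from much the same building blocks as cutin, had an entry for 5 of the 11 listed, and no comparison of nectary with adjacent tissue called more than 1 of them. FAR5, an acyl-CoA reductase of suberin-linked alcohols, was higher in post-secretory bracteal nectaries, at 77.9, 133 and 21.1 against 3.72, 18.6 and 0 in adjacent tissue (limma log2 fold change 3.77 ± 0.93 SE, adjusted p = 0.0135), and in circumbracteal nectaries, at 50.2, 77.5 and 45.0 against 25.5, 2.94 and 0 (adjusted p = 0.013). In post-secretory foliar nectaries it had 15.1, 25.8 and 5.27, while all 3 adjacent samples were listed at 0. ASFT, the feruloyl transferase of suberin, was higher in floral nectaries before secretion, at 270.0 and 117 against 32.8, 28.8 and 13.8 (2.86), and at anthesis, at 265, 776 and 349.5 against 24.9, 84.0 and 128 (2.67), and it was lower in floral nectaries after secretion than during it (-3.10). No other suberin gene was called in a comparison of nectary with adjacent tissue.

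The foliar nectary taken during secretion was a single sample beside a single adjacent sample, so its values stand without error or test. CER4 had 752 in the nectary against 139 in adjacent tissue, and CER6 had 368 against 541. GPAT6 had 260.4 against 456, both between the pre- and post-secretory foliar values of their own tissue. CYP86A8 had 191 in the nectary, also between those of the other stages, against 329 in adjacent tissue, which lay within the pre-secretory range there (217 and 737). DCR had 161 against 143 and SHN1 211 against 250.2.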
